A study of Homo sapiens with 8 samples.

Results

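The 7 genes described here encode the activators of plasminogen, the urokinase receptor, the serpin SERPINE2 and 3 tissue inhibitors of metalloproteinases (TIMPs). They are PLAU, PLAT, PLAUR, SERPINE2, TIMP1, TIMP2 and TIMP3, chosen by symbol among 19775 genes with a probe set whose platform annotation names that gene alone. Each is represented by the probe set with the highest mean over the 8 arrays, out of 16 probe sets for the 7 genes, and all 7 passed the filter on dim probe sets, as did 14180 genes in all. Transcripts were measured on 8 Affymetrix arrays in 2 long-established human lines, KYSE30 and KYSE180, both of esophageal squamous cell carcinoma and with epithelial morphology. Each line went through 4 rounds of transwell selection, in which cells cross a porous membrane. The D sublines (30D and 180D) crossed it and have the stronger motility per the labels, whereas the U sublines (30U and 180U) did not cross. All were grown for 2 passages after harvest, and the labels name no transgene or drug for any group. The 4 groups hold 2 arrays each, and every U subline has 1 D partner from the same parental population, with 4 independent populations in all. The groups are therefore selected sublines of a pair of lines, so replicates differ in the population from which they were selected.

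Urokinase (PLAU) and tissue plasminogen activator (PLAT) are serine proteases that cut plasminogen to plasmin, a protease that degrades fibrin and matrix proteins and activates several matrix metalloproteinases. PLAUR, the urokinase receptor, is anchored in the membrane by a lipid and holds urokinase at the cell surface, where it also contacts integrins. SERPINE2, also called protease nexin-1, inhibits thrombin, urokinase and plasmin, and the TIMPs bind and block active metalloproteinases, TIMP3 staying bound to the matrix. In squamous carcinomas urokinase and its receptor are known from cells at the invasive edge of the tumour.

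Values are log2 expression after RMA, which removes background, equalises the arrays and combines the probes of each set into 1 value, and levels are compared between groups for a single probe set, never between genes. Changes are log2 differences with their SE from limma, and a gene is called at a Benjamini-Hochberg adjusted p under 0.05 over all genes tested. A log2 value of 4.46, the 40th percentile of the means of all probe sets, served as the filter and stands in for background. Array medians lay between 5.02 and 5.04. Across genes the correlation was 0.997 to 0.998 within a group and 0.860 to 0.869 between the lines. In a control for RNA integrity 180D replicate 1 differed, with a signal from the 3′ end of ACTB that exceeded that of the 5′ end by 1.92 (log2), against 1.06 to 1.42 on the other 7 arrays. Of 8 squamous markers 5 had a probe set of their own, and the epithelial cadherin CDH1 lay between 11.65 and 11.85 on all arrays. The basal keratin KRT14 was at 3.45 to 4.27 on the KYSE30 arrays, below the filter value, and KRT5 was at 4.48 to 4.84 there, whereas KYSE180 had 13.34 to 13.64 and 12.17 to 12.36. The arrays measure whole cultures, so fewer cells of a kind and less RNA per cell cannot be told apart.

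In KYSE30, the genes of urokinase, its receptor, TIMP1 and TIMP2 were higher in the motile subline, while PLAT, SERPINE2 and the TIMP3 probe set in use did not pass the test. PLAU, PLAUR, TIMP1 and TIMP2 rose, which is 4 of 7 genes, and none fell. Among all genes tested 8.42% rose and 16.5% passed in either direction. The median change of the 7 genes was 0.22, against 0.01 over all genes tested.

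PLAU read 10.23 and 10.26 on the 30U arrays and 10.92 and 10.90 on the 30D arrays. Both 30D arrays lay above both 30U arrays, and the rise was 1.59-fold (0.67 ± 0.09, limma adjusted p = 0.00348). Within the 2 pairs of sublines from 1 parental population, 30D exceeded 30U by 0.69 and 0.65. The other PLAU probe set, 211668_s_at, rose by 0.68 ± 0.07 when every probe set was tested singly (adjusted p = 0.00281), a fit over 41091 probe sets without a filter in which 5.06% passed. Urokinase transcripts were thus higher in 30D by both probe sets.

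PLAUR read 8.82 and 8.86 in 30U and 9.29 on both 30D arrays. The groups did not overlap, and the rise was 1.37-fold (0.46 ± 0.05, limma adjusted p = 0.00265). Its pairs differed by 0.48 and 0.44. The 2 other PLAUR probe sets, 211924_s_at and 214866_at, rose by 0.43 ± 0.07 and 0.53 ± 0.08 when tested singly, each with a limma adjusted p = 0.0156. All 3 probe sets of the receptor gave a rise of similar size in KYSE30.

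TIMP1, an inhibitor of many secreted metalloproteinases that also has growth-promoting activity, read 10.00 and 9.97 in 30U and 10.36 on both 30D arrays. The rise was 1.29-fold (0.37 ± 0.06, limma adjusted p = 0.00827), and the pairs differed by 0.36 and 0.39. The call of TIMP1 was lost when any 1 KYSE30 array was left out, with limma adjusted p = 0.05 (30U replicate 1), 0.0616 (30U replicate 2), 0.0551 (30D replicate 1) and 0.0564 (30D replicate 2), at changes of 0.35 to 0.39 over all alternatives.

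TIMP2, which inhibits MMP2 and also takes part in its activation at the cell surface, read 10.74 and 10.82 in 30U and 10.99 and 11.01 in 30D. The groups did not overlap, but the change was the smallest of the 4 (1.17-fold, 0.22 ± 0.06, limma adjusted p = 0.0464). This call was lost in 13 of 18 alternatives. These were the parental population as a block (limma adjusted p = 0.0697), the title number as a block (0.103), no filter (0.0904), a filter at the 20th percentile (0.0706), probe sets averaged (0.0967), every probe set tested singly (0.147), each array centred on its median (0.0523), and any 1 of the 4 KYSE30 arrays or either 180D array left out. Without 1 array the limma adjusted p-values were 0.236 for 30U replicate 1, 0.115 for 30U replicate 2, 0.163 for 30D replicate 1, 0.199 for 30D replicate 2 and 0.0514 for 180D replicate 1 and for 180D replicate 2. The probe sets 224560_at and 203167_at gave 0.20 ± 0.08 and 0.36 ± 0.18 and did not pass when tested singly (limma adjusted p = 0.197 and 0.339).

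**Figure D1:**
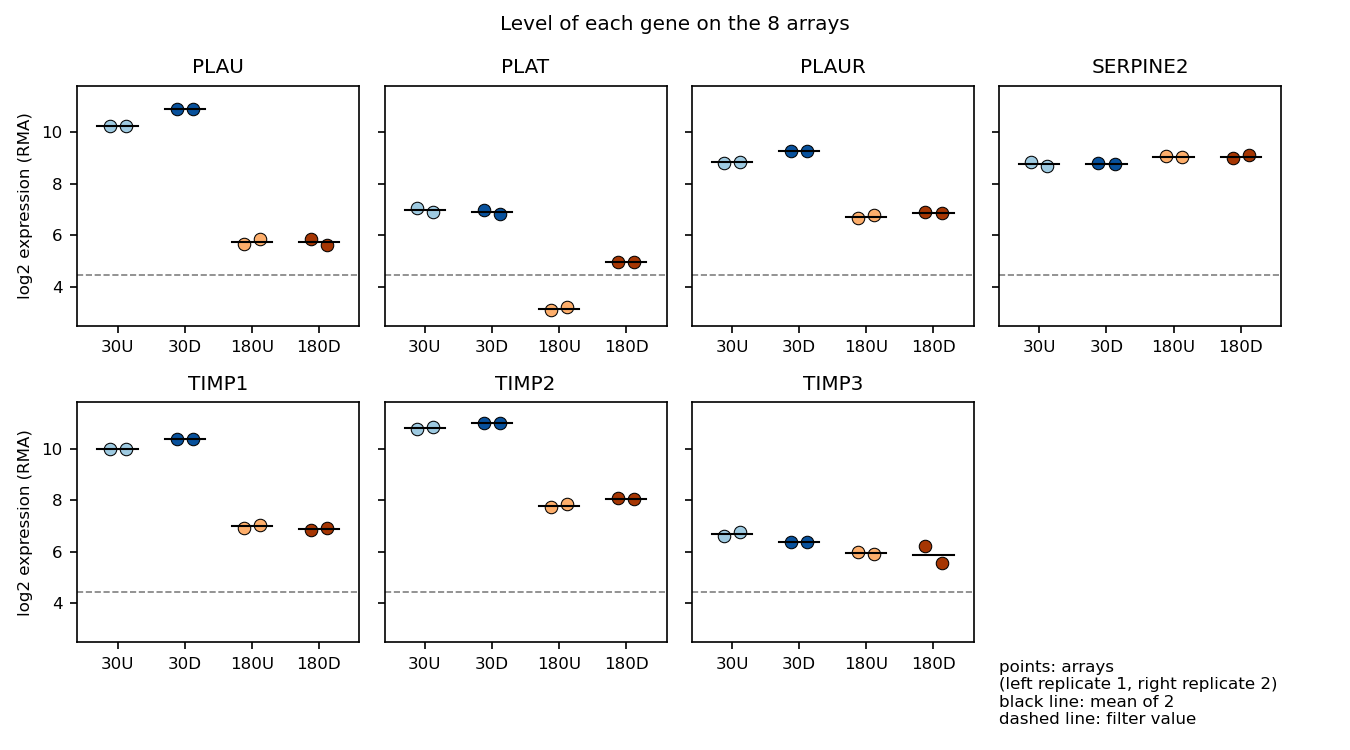
Log2 expression of the 7 genes on each of the 8 arrays, 2 points per group, with the mean of each group as a black line and the filter value of 4.46 as a dashed line. PLAU, PLAUR, TIMP1 and TIMP2 are higher in 30D than in 30U and far lower in KYSE180, PLAT is below the filter value in 180U and above it in 180D, and SERPINE2 is nearly level.

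PLAT and SERPINE2 showed no detectable difference between 30D and 30U. PLAT read 7.07 and 6.91 in 30U and 6.98 and 6.83 in 30D, and the groups overlapped (-0.09 ± 0.08, limma adjusted p = 0.5, 95% interval -0.27 to 0.09). SERPINE2 read 8.83 and 8.71 in 30U and 8.81 and 8.76 in 30D. Its change of 0.01 ± 0.07 (limma adjusted p = 0.918) had a 95% interval of -0.15 to 0.18. A further SERPINE2 probe set, 227487_s_at, lay below the filter value on all 8 arrays.

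TIMP3, whose product is held in the extracellular matrix, had 4 probe sets that were all lower in 30D by their group means. Of these 2 passed when tested singly, a fit in which 5.06% of all probe sets passed in KYSE30. The probe set in use, 201148_s_at, read 6.61 and 6.76 in 30U and 6.39 and 6.38 in 30D. The groups did not overlap, yet the change of -0.30 ± 0.19 did not pass (limma adjusted p = 0.332). That SE comes from the spread of all groups, and the 180D arrays of this probe set stood apart, at 6.21 for replicate 1 and 5.55 for replicate 2. Without either of these arrays the change in KYSE30 had a limma adjusted p = 0.0315, and from the KYSE30 arrays alone it was 0.0417.

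Larger differences came from the 2 dimmest TIMP3 probe sets. Probe set 201147_s_at read 5.98 and 5.97 in 30U and 4.95 and 5.14 in 30D, and fell (-0.93 ± 0.11, limma adjusted p = 0.00529 when every probe set was tested singly). Probe set 201150_s_at read 5.66 and 5.81 in 30U and 4.71 and 4.45 in 30D (-1.16 ± 0.14, limma adjusted p = 0.00585). On both, each 30U array lay above each 30D array, and both pairs of sublines showed the fall. Probe set 201149_s_at read 6.37 and 5.49 in 30U and 5.81 and 5.38 in 30D, so its groups overlapped (-0.33 ± 0.28, limma adjusted p = 0.581). With the probe sets of a gene that passed the filter averaged, TIMP3 fell by 0.52 in KYSE30 (limma adjusted p = 0.0113). The annotation names TIMP3 alone for all 4 and does not say which part of the transcript each one reads.

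**Figure D2:**
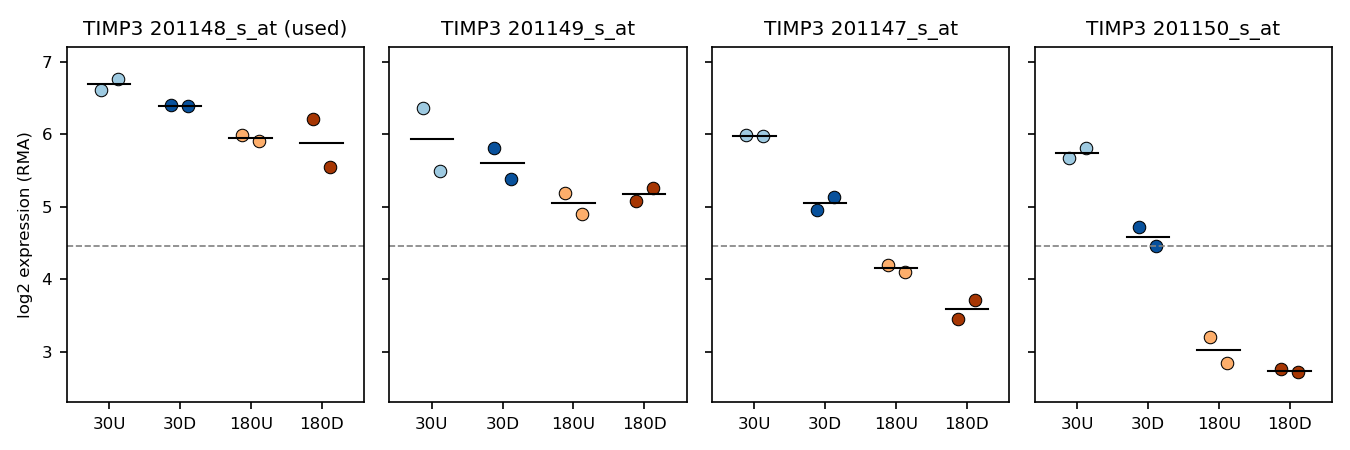
Log2 expression of the 4 TIMP3 probe sets on each of the 8 arrays, with the mean of each group as a black line and the filter value of 4.46 as a dashed line. The 30D arrays lie below the 30U arrays on 201148_s_at, 201147_s_at and 201150_s_at and overlap them on 201149_s_at, and 201147_s_at and 201150_s_at lie below the dashed line on all KYSE180 arrays.

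Promoter sequence is shown for 3 of the genes that rose together in 30D and for TIMP3, which did not, since these are the members a reader may want to compare. The 250 bases before an annotated start (GRCh38.p14) were taken from a set of promoter sequences. This set held an entry for 5 of the 7 genes and lacked PLAT and TIMP2. They were searched on both strands for the AP-1 motif TGANTCA, the ETS core GGAAG and the GC box GGGCGG. Capitals mark AP-1 and ETS matches, and all sequences run 5′ to 3′ on the strand of the gene.
PLAUR, chr19:43670170-43670419, minus strand: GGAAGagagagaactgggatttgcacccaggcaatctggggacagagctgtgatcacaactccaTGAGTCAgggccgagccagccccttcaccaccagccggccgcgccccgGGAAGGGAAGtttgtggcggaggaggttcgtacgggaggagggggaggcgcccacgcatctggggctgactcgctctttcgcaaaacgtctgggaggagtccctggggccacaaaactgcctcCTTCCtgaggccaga
PLAU, chr10:73910882-73911131, plus strand: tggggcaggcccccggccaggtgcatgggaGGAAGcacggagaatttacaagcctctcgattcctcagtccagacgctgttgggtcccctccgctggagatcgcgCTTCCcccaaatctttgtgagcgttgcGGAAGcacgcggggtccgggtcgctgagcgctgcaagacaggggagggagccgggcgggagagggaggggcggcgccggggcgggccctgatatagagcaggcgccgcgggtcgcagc
TIMP1, chrX:47582186-47582435, plus strand: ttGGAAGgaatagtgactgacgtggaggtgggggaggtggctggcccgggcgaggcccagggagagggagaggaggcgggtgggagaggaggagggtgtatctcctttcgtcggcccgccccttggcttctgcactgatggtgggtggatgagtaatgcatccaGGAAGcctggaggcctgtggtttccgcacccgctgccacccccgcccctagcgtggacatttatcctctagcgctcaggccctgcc
TIMP3, chr22:32801455-32801704, plus strand: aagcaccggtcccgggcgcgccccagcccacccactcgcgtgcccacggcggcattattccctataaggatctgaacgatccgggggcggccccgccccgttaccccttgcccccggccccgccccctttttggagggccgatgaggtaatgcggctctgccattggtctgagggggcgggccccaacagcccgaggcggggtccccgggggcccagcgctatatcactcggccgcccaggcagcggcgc
PLAUR held the only AP-1 match among these 4 windows, 186 to 180 bases before its start, and 6.57% of 35116 promoter windows of this length hold such a match. ETS matches numbered 4 in PLAUR, 3 in this PLAU window, 2 in TIMP1 and 0 in TIMP3, against at least 1 in 65.1% of all windows. In the PLAUR window 2 ETS matches adjoin each other without overlap. GC boxes numbered 5 in TIMP3, 3 in PLAU, 2 in TIMP1 and 0 in PLAUR, and 42.6% of windows hold at least 1. A further PLAU start listed upstream held no match to these motifs. SERPINE2, which did not pass in KYSE30, had 2 windows that are not shown. They held 1 and 0 ETS matches, 1 and 2 GC boxes and no AP-1 match. The matches are letters in these windows and were not tested against expression.

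In KYSE180 the picture differed, since PLAT alone of the 7 genes passed the test between 180D and 180U. It rose, and among all genes tested 2.55% rose and 3.75% passed in either direction. The median change of the 7 genes was -0.00, against 0.02 over all genes.

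PLAT read 3.12 and 3.21 on the 180U arrays and 4.96 on both 180D arrays. The 180U values lay below the filter value of 4.46 and the 180D values above it. The fitted change was 1.80 ± 0.08 (limma adjusted p = 8.09e-05), and measured from the filter value PLAT was at least 1.42-fold higher in 180D. The pairs differed by 1.84 and 1.75, and the change stayed between 1.75 and 1.84 over the alternatives tried. Without 180D replicate 1, the array that stood apart in its ACTB control, the second 180D array gave the same level to all deposited decimals. Such identical values occurred in 0.273% of all probe sets between these 2 arrays and in 0.283% to 0.316% between the arrays of the other groups. PLAT has a single probe set on this array and so no second reading.

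Endothelial cells, known for high PLAT, were looked for through 7 markers, of which 4 passed the filter and none was called in either line. The summed linear level of the 7 was 204 to 207 on the 180U arrays and 187 to 202 on the 180D arrays, and CDH5, KDR and ERG lay below the filter. Of 9 fibroblast markers 4 passed the filter and COL1A1 rose in 180D (0.58 ± 0.11, limma adjusted p = 0.035). The summed linear level of the 9 was 324 to 332 in 180U and 390 to 443 in 180D, while COL1A2, COL3A1, LUM, PDGFRA and FAP lay below the filter. Their part in the PLAT result was not tested. Of 7 immune markers 5 had a probe set and 1 passed the filter, with no call.

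The other 6 genes did not pass in KYSE180. PLAU read 5.67 and 5.86 in 180U and 5.84 and 5.64 in 180D, and the groups overlapped (-0.02 ± 0.09, limma adjusted p = 0.932, 95% interval -0.22 to 0.18). SERPINE2 read 9.09 and 9.04 in 180U and 9.0 and 9.12 in 180D (-0.00 ± 0.07, limma adjusted p = 0.986, 95% interval -0.16 to 0.16). TIMP1 read 6.93 and 7.04 in 180U and 6.84 and 6.94 in 180D and also overlapped (-0.10 ± 0.06, limma adjusted p = 0.415). On these 3 probe sets the KYSE180 groups overlapped. The other PLAU probe set, 211668_s_at, read 4.42 on both 180U arrays, below the filter value, and 4.59 and 4.54 on the 180D arrays, without overlap, and did not pass when tested singly (0.15 ± 0.07, limma adjusted p = 0.408).

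TIMP2 came nearest to the threshold, with 7.73 and 7.84 in 180U and 8.09 and 8.03 in 180D. The groups did not overlap (0.27 ± 0.06, limma adjusted p = 0.0567), and the pairs differed by 0.30 and 0.25. PLAUR read 6.68 and 6.78 in 180U and 6.90 and 6.87 in 180D (0.15 ± 0.05, limma adjusted p = 0.187). Its probe sets disagreed in this line. Probe set 211924_s_at gave 0.17 ± 0.07 and 214866_at gave -0.22 ± 0.08, neither passing when tested singly (limma adjusted p = 0.343 and 0.310). TIMP3 by the probe set in use changed by -0.07 ± 0.19 (limma adjusted p = 0.883), while its pairs went in opposite directions, by -0.44 and 0.30. The dimmer TIMP3 probe set 201147_s_at read 4.19 and 4.10 in 180U and 3.45 and 3.72 in 180D, all below the filter value.

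**Figure D3:**
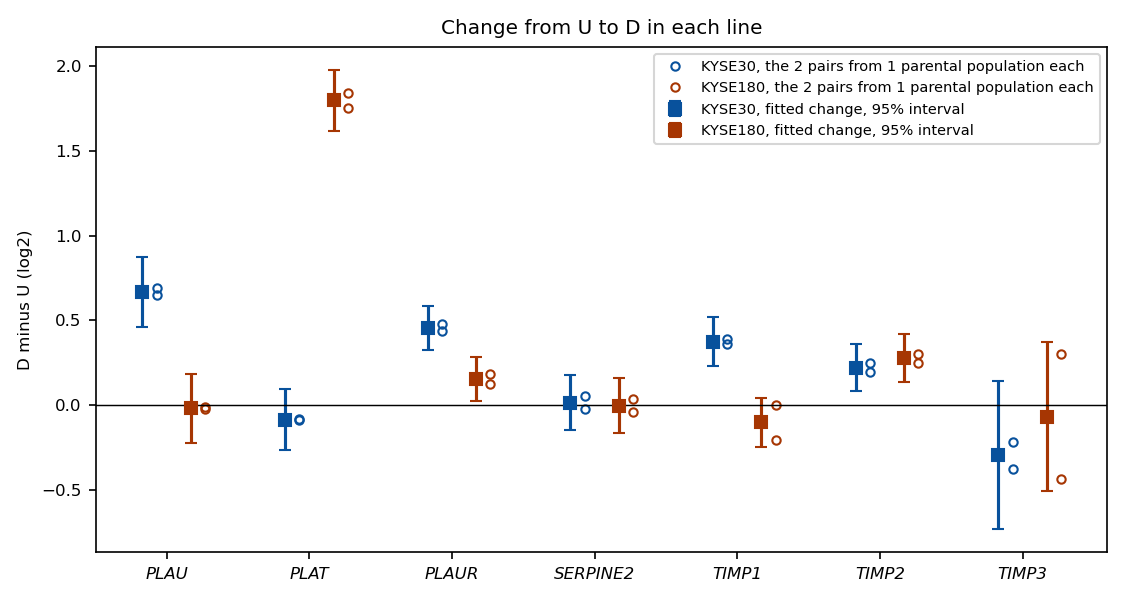
Change from U to D on the log2 scale for each gene, as the fitted change with its 95% interval (squares) and as the differences within the 2 pairs of sublines from 1 parental population each (open circles), blue for KYSE30 and brown for KYSE180. PLAU, PLAUR and TIMP1 lie above 0 in KYSE30 and nearer 0 in KYSE180, PLAT lies at 1.80 in KYSE180 and near 0 in KYSE30, and TIMP2 is at 0.22 and 0.27.

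Whether the lines differed in their change was tested directly, as the D minus U change in KYSE180 less that in KYSE30. Of the 7 genes 4 passed, against 12.2% of all genes. PLAT had the larger change in KYSE180, by a fitted 1.88 ± 0.11 (limma adjusted p = 0.00017). Since its 180U level lay below the filter value, the difference measured from that value is at least 0.59. PLAU (-0.69 ± 0.12, limma adjusted p = 0.0147), TIMP1 (-0.48 ± 0.09, 0.0158) and PLAUR (-0.30 ± 0.08, 0.0473) had the smaller change there. TIMP2 did not differ detectably (0.05 ± 0.08, limma adjusted p = 0.737, 95% interval -0.15 to 0.25), nor did SERPINE2 (-0.02 ± 0.10, 0.934) or TIMP3 (0.23 ± 0.26, 0.629). This comparison shares all arrays with the changes within the lines and adds no separate evidence for them. With the parental population as a block PLAUR and TIMP1 lost their calls (limma adjusted p = 0.0929 and 0.0577). Blocking by title number lost those of PLAU and PLAUR (0.0624 and 0.116). PLAUR lost its call in 12 of 17 alternatives, among them no filter (0.0967) and a filter at the 20th percentile (0.0745). Tested singly, its probe sets 210845_s_at and 211924_s_at did not pass (limma adjusted p = 0.157 and 0.205), whereas 214866_at did (-0.75, 0.0201). TIMP1 did not pass in that fit (0.0598). When 30U replicate 1, 30U replicate 2, 30D replicate 1 or 30D replicate 2 was left out, PLAU (limma adjusted p 0.0558, 0.0516, 0.0556 and 0.0512), TIMP1 (0.0569, 0.0671, 0.061 and 0.0624) and PLAUR (0.159, 0.122, 0.148 and 0.14) did not pass. PLAUR was also lost when 180U replicate 2 (0.101) or one of the 180D arrays (0.0701 for replicate 1 and 0.0829 for replicate 2) was left out, and TIMP3 passed without 180D replicate 2 (0.56, 0.0274).

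Over both lines together, with cell line in the fit, none of the 7 genes passed by the probe sets in use, against 0.874% of all genes. This fit has no term for a change that differs between the lines, so such a difference widens its SE. For PLAT the SE was 0.33 here and 0.08 in the fit of 4 group means. By unadjusted p under 0.05 PLAU, PLAT, PLAUR and TIMP2 would pass, as would 2265 of the 14180 genes tested. The smallest p was that of TIMP2, at 0.25 ± 0.05 (limma adjusted p = 0.063), a gene whose 4 pairs all had the D subline higher, by 0.19 to 0.30. PLAUR followed at 0.31 ± 0.07 (limma adjusted p = 0.0941), also with D higher in all 4 pairs. PLAT had a fitted mean change of 0.86 ± 0.33 (limma adjusted p = 0.274), which is at least 0.21 when its 180U level is set to the filter value. When every probe set was tested singly, TIMP3 probe set 201147_s_at was lower in D (-0.75 ± 0.10, limma adjusted p = 0.0326). In that fit 64 of 41091 probe sets passed. Its KYSE180 values lay below the filter value, and the other TIMP3 probe sets did not pass.

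The lines themselves differed in all 7 genes, where 67.1% of all genes passed. KYSE180 was lower than KYSE30 in 6 of the 7, against 31.0% of all genes, and higher in SERPINE2. The median difference, KYSE180 minus KYSE30, was -2.88 for the 7 genes and 0.05 for all genes tested. PLAU had the largest difference, 28.3-fold lower in KYSE180 (-4.82 ± 0.14, limma adjusted p = 1.26e-08), followed by TIMP1 at 9.40-fold (-3.23 ± 0.10, 1.72e-08), TIMP2 at 7.85-fold (-2.97 ± 0.05, 7.06e-10) and PLAUR at 4.79-fold (-2.26 ± 0.07, 2e-08). On each of these 4 genes every KYSE180 array lay below every KYSE30 array. Every other probe set of PLAU, PLAUR and TIMP2 was lower in KYSE180 too, with differences of -1.43 to -4.83.

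PLAT was lower in KYSE180 in both sublines. Its fitted mean difference was -2.88 ± 0.33 (limma adjusted p = 7.01e-05). Since 180U lay below the filter value and 180D above it, this is a fitted value and no bound. Between the U sublines 180U was at least 5.79-fold lower than 30U, since its level lay below the filter value, and between the D sublines the difference was -1.94. TIMP3 by the probe set in use was 1.54-fold lower (-0.62 ± 0.13, limma adjusted p = 0.0028), and all 4 of its probe sets passed when tested singly, where 48.0% of probe sets did. Probe set 201149_s_at gave -0.66, and 201147_s_at and 201150_s_at, below the filter value on all KYSE180 arrays, were at least 2.08-fold and at least 1.63-fold lower. SERPINE2, the serpin of the group, was 1.22-fold higher in KYSE180 (0.28 ± 0.05, limma adjusted p = 0.00115).

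By the probe sets in use, the order of the 4 groups was the same for PLAU and TIMP1, with 30D highest, then 30U, then 180U and 180D, the last 2 overlapping. PLAUR and TIMP2, again by the probe sets in use, shared the order 30D, 30U, 180D and 180U, with no overlap between neighbours. Some other probe sets of these genes differed within KYSE180. PLAU 211668_s_at had 180D above 180U and PLAUR 214866_at had 180U above 180D, both without overlap. On TIMP2 203167_at the KYSE180 groups overlapped. PLAT ran from 30U and 30D, which overlapped, to 180D and then 180U. TIMP3 ran from 30U through 30D to 180U and 180D, where only the last neighbours overlapped on the probe set in use. For SERPINE2 the KYSE180 groups overlapped each other and lay above the KYSE30 groups, which also overlapped.

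Genes with the most similar profile were taken as those with the smallest root mean square difference of log2 values, each gene centred on its own mean, over the 8 arrays. The closest to PLAUR was KLF6, a zinc finger transcription factor, at 0.04, whose group means were 10.04 in 30U, 10.40 in 30D, 7.89 in 180U and 8.06 in 180D, followed by CLIC4 at 0.06 and MSRA at 0.08. The nearest to PLAU were LIPG and CAVIN3, both at 0.14, and ZNF600 at 0.19. TIMP1 lay nearest to FAM171B (0.09), P3H2 (0.11) and CDH19 (0.12), and TIMP2 to ABAT (0.04), SERTAD4 (0.09) and UACA (0.11). For PLAT the nearest were IFIT3, SCNN1A and NECTIN3, at 0.32 to 0.36, a looser match. SERPINE2, whose SD over the 8 arrays was 0.16, lay within 0.03 of CTNNB1, XKR8 and ITGAE. TIMP3 came closest to CSRNP1, FAM228B and ATL1, at 0.12 each. With the line difference in nearly every profile, these likenesses describe level patterns over 8 arrays and carry no test.

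For other genes of plasminogen activation and its control, 2 passed the test in KYSE30 and 0 in KYSE180. Of 22 listed symbols 18 had a probe set and 15 passed the filter. In KYSE30, F12, coagulation factor XII, rose (0.38 ± 0.05, limma adjusted p = 0.00318) and SERPINF2, the plasmin inhibitor antiplasmin, fell (-0.67 ± 0.17, 0.0376), while 13 did not pass, beside 16.5% of all genes that did. The call of F12 was lost with its probe sets averaged (0.11, limma adjusted p = 0.284), and that of SERPINF2 with the parental population as a block (0.0517) and without 30U replicate 1 (0.0900), 30U replicate 2 (0.178), 30D replicate 1 (0.107), 30D replicate 2 (0.163) or either 180U replicate 1 or 180U replicate 2 (0.0643). In KYSE180 none of the 15 passed by limma, beside 3.75% of all genes. By unadjusted p under 0.05 A2M (0.22 ± 0.06) and SERPINI1 (-0.40 ± 0.12) would, as would 2721 of the 14180 genes tested. The median change of the 15 was 0.09 in KYSE30 and 0.01 in KYSE180. The plasminogen-binding surface proteins S100A10, ANXA2 and ENO1 and the receptor PLGRKT did not pass in either line, and plasminogen itself, PLG, lay below the filter. Between the lines, where 67.1% of all genes passed, 7 of the 15 were higher in KYSE180 and 6 lower, among them the neuronal serpin SERPINI1 (3.57 ± 0.16, limma adjusted p = 1.58e-07) and S100A10 (-0.41 ± 0.04, 3.27e-05). LRPAP1, a chaperone of LDL receptor family members, was higher by 0.68 ± 0.06 (limma adjusted p = 7.85e-06) but lower by 0.36 on the log2 scale with its probe sets averaged.

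Among 26 metalloproteinases and partners of the TIMPs, 21 passed the filter. In KYSE30 3 were called higher, 4 lower and 14 not, with a median change of -0.06, where 16.5% of all genes were called. ADAM12 rose (0.82 ± 0.07, limma adjusted p = 0.000682), and ADAMTS1 fell from 4.98 to 4.14, below the filter value, which makes it at least 1.44-fold lower, a call not kept with its probe sets averaged (-0.35, limma adjusted p = 0.126). MMP9 also rose and MMP11 and ADAM17 also fell, by 0.26, -0.20 and -0.22, and these 3 are named after their values were seen. MMP1 and MMP10 are counted among the 7 calls, but their levels in both KYSE30 sublines lay below the filter value, so neither is read as a change. In KYSE180 2 rose, 2 fell and 17 did not pass, with a median of 0.02, where 3.75% of all genes passed. MMP2, the gelatinase that TIMP2 inhibits, read 7.14 and 7.16 in 180U and 8.12 and 7.99 in 180D (0.91 ± 0.07, limma adjusted p = 0.000799), whereas the 4 KYSE30 arrays lay between 6.93 and 7.06. MMP16, a membrane-bound metalloproteinase, was under the filter value in 180U, and 180D exceeded it at least 2.78-fold. Its call was lost without 180D replicate 1 (limma adjusted p = 0.0675) or 180D replicate 2 (0.0577). The collagenase MMP1 fell (-1.30 ± 0.08, limma adjusted p = 0.000319). ADAM12 changed by -0.36 ± 0.07 (limma adjusted p = 0.0383), a call lost with its probe sets averaged (-0.03, 0.846), with the parental population as a block (0.107) and without 30D replicate 1 or 30D replicate 2 (0.0785), 180U replicate 1 (0.115), 180U replicate 2 (0.141), 180D replicate 1 (0.12) or 180D replicate 2 (0.0944).

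Between the lines, 11 of these 21 genes were higher in KYSE180 and 3 lower, a share close to the 67.1% of all genes that passed. MMP10 and MMP1 were at least 128-fold and at least 29.7-fold higher in KYSE180, measured from the filter value, and ADAMTS1 was higher by 2.94 ± 0.16 (limma adjusted p = 6.9e-07). MMP28 was among the 3 lower ones (-2.20 ± 0.09, limma adjusted p = 1.43e-07). Of 12 membrane partners of the urokinase receptor 11 passed the filter. In KYSE30 1 of the 11 was called, where 16.5% of all genes were, and in KYSE180 0, where 3.75% of all genes were. The call in KYSE30 was that of ITGA3, the integrin alpha-3 subunit, which was higher in 30D (0.41 ± 0.09, limma adjusted p = 0.0264, with a median of 0.05 for the 11). Its limma adjusted p was 0.0916 when 30U replicate 1 was left out, 0.136 for 30U replicate 2 and 0.142 for 30D replicate 2. Between the lines 6 of the 11 were lower and 3 higher in KYSE180, beside the same 67.1% of all genes, the integrin subunit ITGAV by -1.61 ± 0.05 (limma adjusted p = 1.96e-08) and EGFR by -0.77 ± 0.06 (4.46e-06).

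**Figure D4:**
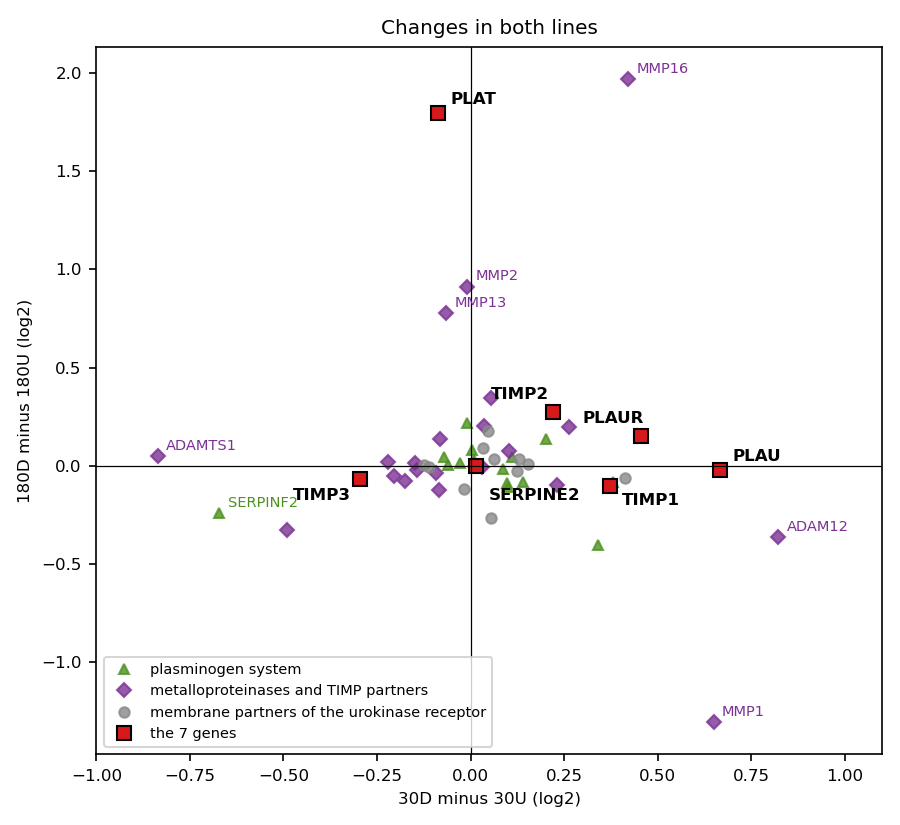
Change from U to D in KYSE30 (horizontal, log2) and KYSE180 (vertical, log2) for the 7 genes (red squares) and the tested genes of the 3 lists, with names for the 7 and for list genes with a difference over 0.6 in a line. PLAT lies high on the vertical axis beside MMP16 and MMP2, PLAU, PLAUR and TIMP1 lie to the right near 0 on the vertical axis, and MMP1 in KYSE30 is a value below the filter.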

How the data were processed

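The deposited values are log2 expression values that the authors made with RMA, a step named in the submitters' processing notes. Its software release was not given in the sources used here. RMA makes the arrays' distributions alike and compresses dim signals, which shrinks the changes of dim genes. Probe sets with 1 gene symbol in the platform annotation (41091 of 54675) were named and updated through RefSeq (GRCh38.p14). Those with a mean under the 40th percentile were dropped, and the brightest probe set stood for its gene. Limma 3.58.1 in R 4.3.3 (lmFit and eBayes, two-sided) was fitted to the 14180 genes, as 4 group means for changes within a line and their difference, and as line plus fraction for the other comparisons. It was checked on simulated data. The members, lists, tests and the naming rule (all 7 genes, and up to 4 genes with the smallest p per list and comparison) were chosen with earlier results of these data known. The single fit of every probe set was added after seeing the data. The 95% intervals come from limma's moderated SE.

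The descriptions name the parental population behind each pair of sublines. In KYSE180 these pairs cross the replicate numbers of the titles. Deviations of partners from their group means correlated at -0.02 in KYSE30 and 0.02 in KYSE180. The number of arrays limits the precision.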

Additional observations from a re-analysis of the deposited data

Results flagged for a closer look

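For 4 of the 7 genes the D minus U change was not alike in KYSE30 and KYSE180, by the direct test of the difference, which 12.2% of all genes passed. The difference, KYSE180 minus KYSE30, was 1.88 for PLAT (limma adjusted p = 0.00017, at least 0.59 when 180U is set to the filter value), -0.69 for PLAU (0.0147), -0.48 for TIMP1 (0.0158) and -0.30 for PLAUR (0.0473). PLAU, TIMP1 and PLAUR lost their calls when 30U replicate 1, 30U replicate 2, 30D replicate 1 or 30D replicate 2 was left out, which leaves 1 of the 7, and either block left 2. Among the listed partner genes 5 of 21 metalloproteinases and TIMP partners passed, with 2 of 15 plasminogen genes and 0 of 11 receptor partners. The difference was -1.95 for MMP1, -1.19 for ADAM12, 0.92 for MMP2, 0.88 for ADAMTS1, -0.74 for SERPINI1 and -0.46 for F12. Their limma adjusted p-values ran from 0.000175 to 0.0349. MMP16 passed too, at a fitted 1.55 (limma adjusted p = 0.0438) with its 180U mean below the filter value. MMP1 lay below the filter value in both KYSE30 sublines, so the part of its difference from KYSE30 (0.65) is not read as a change, and the KYSE180 part was -1.30. ADAMTS1 lay below the filter value in 30D, so its difference is a fitted value and no bound. With probe sets averaged the differences of ADAMTS1 and F12 were 0.28 and -0.20 and did not pass (limma adjusted p = 0.388 and 0.209). SERPINI1 lost its call when any 1 array other than 30U replicate 2 or 180D replicate 2 was left out, with limma adjusted p = 0.0537 to 0.107. The groups of 2 arrays were too small for a check on outlying samples.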

How the results depend on the processing

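The calls of PLAU and PLAUR in KYSE30, of PLAT in KYSE180 and of all 7 genes between the lines were kept under every alternative in which they were tested, PLAT being left out by a filter at the 60th percentile. Calls by limma numbered 2346 genes in KYSE30, 532 in KYSE180, 1723 for the difference and 124 over both lines. Leaving out 1 array gave 834 to 2553, 209 to 502, 727 to 1702 and 16 to 77 genes, and 2 to 4, 1, 1 to 4 and 0 of the 7 genes. Without a filter 311 genes passed in KYSE180 and 1142 for the difference. An intensity trend gave 1069, 2700 and, over both lines, 195 genes, and it gave 2 of the 7 in KYSE180 and 1 over both lines, as did a filter at the 60th percentile over both lines. With the parental population as a replicate block, 230 genes passed in KYSE180, 1011 for the difference and 0 over both lines (1659 at an unadjusted p under 0.05). Blocking by title number gave 175, 961 and 0 (1620 unadjusted). Both blocks left 2 of the 7 genes for the difference. The KYSE180 arrays alone gave 195 genes. LRPAP1 reversed to -0.36 between the lines with probe sets averaged. The correlation within blocks, from the fit of line plus fraction, was -0.37 by parental population and -0.39 by title number. That fit has no term for a change that differs between the lines, and such a change stays in its residuals. These 2 values therefore cannot show whether partners resemble each other. Deviations from the group means correlated at only -0.02 in KYSE30 and 0.02 in KYSE180 by parental population. The cause of the shifts in the counts was not tested. Signals below the filter value limit PLAT in 180U and MMP1 in KYSE30.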
